A study of Homo sapiens with 4 samples.

Results

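The Frizzled genes, FZD1 to FZD10, encode the seven-pass membrane receptors that bind Wnt proteins through an extracellular cysteine-rich domain. The 10 members were taken by gene symbol from an expression table of 58365 gene rows. Each symbol had 1 row, and the rule itself uses the symbol and no measured value. The table came from H1 cells, a human embryonic stem cell line, at day 2 of hematopoietic differentiation. Per the labels, both groups were cultured in Custom mTeSR1 medium with 40 ng/ml activin A and 50 ng/ml BMP4. The methods text assigns these doses to the 2 factors the other way round, which could not be settled from the data. The 2 DMSO libraries were grown without IWP2 and the 2 IWP2 libraries with it, at a dose that the labels do not give. The comparison asks how receptor expression stood when the cells' own Wnt proteins were blocked. All samples were of 1 cell line and the labels do not say whether the 2 libraries of a group came from separate cultures, so p-values measure only the spread between these libraries.

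In the Wnt pathway, Porcupine attaches a fatty acid to newly made Wnt proteins, and the lipidated ligand then engages a Frizzled together with LRP5 or LRP6. Dishevelled is recruited to the receptor, beta-catenin is spared from degradation, and TCF and LEF factors switch on target genes. IWP2 inhibits Porcupine, so it acts on the ligand and not on the receptor. Frizzleds fall by sequence into 4 subfamilies, namely FZD1, FZD2 and FZD7, then FZD5 and FZD8, then FZD4, FZD9 and FZD10, and last FZD3 and FZD6. Wnt signaling drives formation of the primitive streak and mesoderm from pluripotent cells.

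The receptor repertoire differed between the groups mainly in FZD7, FZD8 and FZD5. FZD7 was 4.86-fold lower in mean FPKM with IWP2 and FZD8 was 2.18-fold lower, whereas FZD5 was 3.44-fold higher. FPKM is the number of fragments scaled to transcript length and to library size, so it can be compared between genes. In the limma test across all genes, 4 of the 10 members passed an adjusted p of 0.05, with 1 higher and 3 lower in IWP2. Over all 15980 genes tested, 13.2% passed, 5.81% higher and 7.35% lower. The median log2 difference was -0.21 over the 10 members and -0.01 over all genes tested. In these bulk samples a smaller number of cells that express a receptor and less RNA per cell cannot be told apart.

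The cells of the 2 groups also differed in their marker genes, and the part of this in the Frizzled values was not tested. All 7 tested markers, of 8 listed, of primitive streak and nascent mesoderm fell with IWP2, and the list summed to 890 to 1108 FPKM in DMSO against 49.4 to 53.3 FPKM in IWP2. Of 7 pluripotency markers, 4 rose and 1 fell, and the list summed to 1145 to 1320 FPKM in DMSO against 2393 to 2405 FPKM in IWP2. SOX2, a core pluripotency factor, had the largest difference of the list, at 0.193 and 0.174 FPKM in DMSO and 35.6 and 36.1 FPKM in IWP2. POU5F1 made up most of the sum, at 751 and 571 FPKM in DMSO and 1854 and 1844 FPKM in IWP2. TDGF1 was the marker that fell, from 203 and 221 FPKM in DMSO to 103 and 98.6 FPKM in IWP2. NANOG and LIN28A did not pass (adjusted p = 0.183 and 0.746). Among 4 endoderm markers 3 fell, with list sums of 1775 to 2158 FPKM in DMSO and 119 to 130 FPKM in IWP2. CER1 made up most of the DMSO sum, at 1612 and 2048 FPKM, and was at 38.6 and 34.2 FPKM in IWP2. SOX17, most of the IWP2 sum, did not pass (adjusted p = 0.167). It was at 155 and 104 FPKM in DMSO and at 79.7 and 94.9 FPKM in IWP2. Of 5 amnion and trophectoderm markers 3 rose and 1 fell, with sums of 62.3 to 63.0 FPKM and 76.8 to 82.7 FPKM. Neuroectoderm markers summed to at most 1.61 FPKM and endothelial markers to at most 4.08 FPKM in any library, with HES5 listed at 0 in all 4 and the endothelial receptor TEK lower in IWP2 (adjusted p = 0.0479). Hematopoietic markers summed to at most 2.85 FPKM, with RUNX1 lower in IWP2 (adjusted p = 0.00942) and GATA1 listed at 0 in all 4 libraries. Of 2 tested fibroblast markers LUM fell and COL1A1, which made up most of the list, did not pass (adjusted p = 0.0820), with sums of 31.98 to 39.00 FPKM in DMSO and 23.4 to 23.7 FPKM in IWP2. Each library had 24205 to 24512 gene rows above 0. Low values moved in steps, sought within a preset range of sizes, that imply 20300000 to 25100000 fragments a library.

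**Figure D1:**
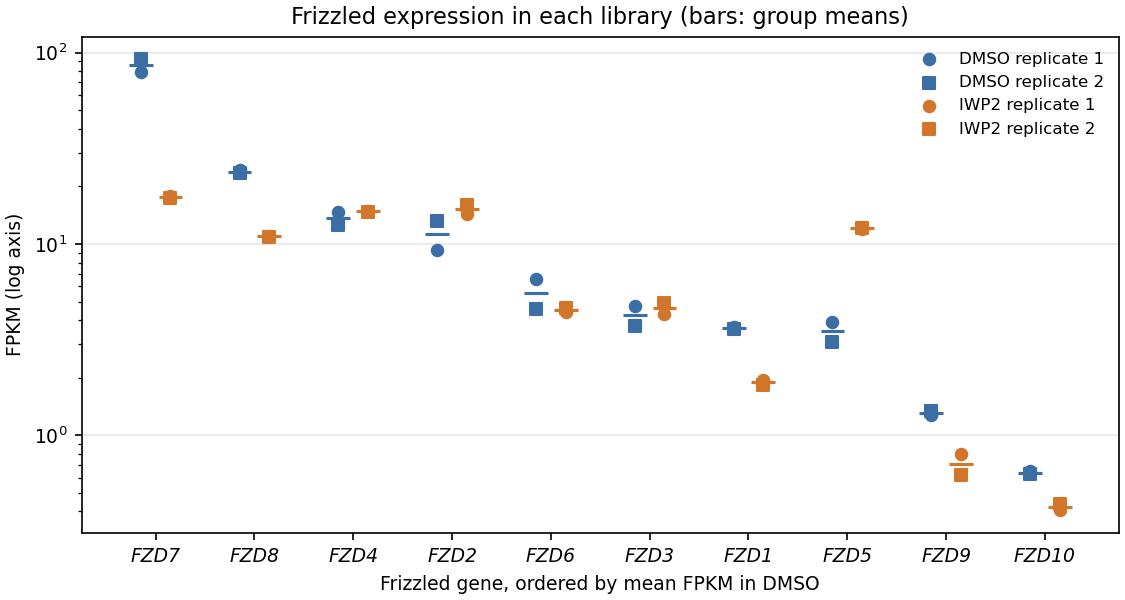
FPKM of each Frizzled gene (log axis) in the 2 DMSO (blue) and 2 IWP2 (orange) libraries, with circles for replicate 1, squares for replicate 2 and bars for group means. FZD7, FZD8 and FZD1 are lower and FZD5 is higher in both IWP2 libraries. So are FZD9 and FZD10 (lower) and FZD2 (higher), which were not called. The levels span from 0.406 FPKM for FZD10 to 92.3 FPKM for FZD7.

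FZD7, the receptor most often studied in human pluripotent cells, lies on chr2:202034587-202038445 of GRCh38, plus strand, as 1 exon. It was at 79.3 and 92.3 FPKM in DMSO and at 17.8 and 17.5 FPKM in IWP2. The groups were far apart, and the IWP2 libraries lay closer to each other than the DMSO libraries. FZD7 fell by 2.21 on the log2(FPKM + 1) scale, with an SE of 0.104, a 95% interval of -2.48 to -1.95 and an adjusted p of 0.000833. It ranked 192 by size of change among the 15980 genes tested. About 6503 and 6758 fragments stood behind the DMSO values and 1624 and 1355 behind the IWP2 values. Without IWP2 replicate 2 the log2 difference was -2.20 and the adjusted p 0.0507, and without each of the other libraries it stayed between 0.0232 and 0.0469.

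FZD1 and FZD2, the close relatives of FZD7, did not follow it to the same extent. FZD1, a receptor for canonical Wnt ligands on chr7:91264364-91271326, plus strand, was at 3.69 and 3.60 FPKM in DMSO and at 1.95 and 1.84 FPKM in IWP2. The groups did not overlap, and FZD1 fell by 0.68 on the log2(FPKM + 1) scale (SE 0.140, adjusted p = 0.0387). That call was the weakest of the 4, since it was lost without any 1 of the libraries, with adjusted p from 0.123 without DMSO replicate 1 to 0.223 without IWP2 replicate 2, and with the low-value filter removed, at 0.119. FZD2, linked in other systems to WNT5A and ROR2 signaling, lies on chr17:44557459-44559570, plus strand. It was at 9.36 and 13.1 FPKM in DMSO and at 14.3 and 16.1 FPKM in IWP2. Both IWP2 values were above both DMSO values, but the DMSO libraries were themselves far apart. The FZD2 log2 difference was 0.42, with a 95% interval of -0.04 to 0.87 and an adjusted p of 0.205. The FZD2 row covers 2112 bases, against 3779 bases for the gene in RefSeq, and the FZD7 row 3859 against 4587 bases. Their levels relative to other Frizzleds, and ratios and shares built on them, thus depend on the gene model. The comparison of each gene between groups does not. FZD7 was 8.48 and 7.02 times FZD2 in the DMSO libraries and 1.25 and 1.09 times FZD2 in the IWP2 libraries.

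FZD5 and FZD8, the receptors of the second subfamily, changed in opposite directions. FZD8, whose cysteine-rich domain served for the first crystal structure of a Wnt bound to its receptor, lies on chr10:35638249-35642278, minus strand, as 1 exon. FZD8 was at 24.3 and 23.5 FPKM in DMSO and at 10.997 and 10.923 FPKM in IWP2. It fell by 1.06 on the log2(FPKM + 1) scale (SE 0.0916, 95% interval -1.29 to -0.82, adjusted p = 0.00416). FZD5, needed for early eye and placental development in animal models, lies on chr2:207762586-207769563, minus strand, with 2 exons. FZD5 was at 3.93 and 3.08 FPKM in DMSO and at 11.9 and 12.2 FPKM in IWP2. It rose by 1.54 on the log2(FPKM + 1) scale (SE 0.141, 95% interval 1.18 to 1.90, adjusted p = 0.00470), the only Frizzled that rose past the threshold.

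The order of this pair was reversed between the groups. FZD8 was 6.17 and 7.63 times FZD5 in the DMSO libraries and 0.924 and 0.896 times FZD5 in the IWP2 libraries. The FZD5 gene spans 6978 bases here and 7309 bases in RefSeq, so the narrow order in IWP2 may depend on the gene model. The summed FPKM of FZD5 and FZD8 differed less, at 27.4 ± 1.17 (SD, n = 2) in DMSO against 23.0 ± 0.148 in IWP2. Both calls were lost when either IWP2 library was left out, and most calls over all genes were lost in those fits too. For FZD8 the adjusted p was 0.0853 and 0.0902 without IWP2 replicate 1 and 2, and 0.0515 without DMSO replicate 2. For FZD5 it was 0.101 and 0.105 without IWP2 replicate 1 and 2, and 0.0540 with the low-value filter removed. The FZD5 log2 difference stayed between 1.40 and 1.68 and the FZD8 difference between -1.08 and -1.03 whichever library was left out.

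The bases before the RefSeq start are shown for the 3 called members that had a RefSeq promoter window (GRCh38.p14), because FZD5 moved against FZD8 and FZD1. They run 5′ to 3′ on the strand of the gene, and capitals mark CCAAT boxes (CCAAT, or ATTGG where it is on the other strand) and the TATA box word TATAAA. The FZD5 stretch is chr2:207769907-207770156 (minus), the FZD8 stretch chr10:35642297-35642546 (minus) and the FZD1 stretch chr7:91264183-91264363 (plus), which ends where the gene begins in GENCODE.
FZD5: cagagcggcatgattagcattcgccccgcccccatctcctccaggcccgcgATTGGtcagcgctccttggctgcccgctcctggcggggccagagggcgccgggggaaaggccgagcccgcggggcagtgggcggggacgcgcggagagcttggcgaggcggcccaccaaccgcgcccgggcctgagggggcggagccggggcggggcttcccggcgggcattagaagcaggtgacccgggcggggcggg
FZD8: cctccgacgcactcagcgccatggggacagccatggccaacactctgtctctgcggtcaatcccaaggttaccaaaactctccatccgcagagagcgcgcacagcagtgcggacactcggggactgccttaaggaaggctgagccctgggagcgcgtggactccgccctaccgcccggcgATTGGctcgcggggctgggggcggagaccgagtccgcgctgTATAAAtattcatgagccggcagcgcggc
FZD1: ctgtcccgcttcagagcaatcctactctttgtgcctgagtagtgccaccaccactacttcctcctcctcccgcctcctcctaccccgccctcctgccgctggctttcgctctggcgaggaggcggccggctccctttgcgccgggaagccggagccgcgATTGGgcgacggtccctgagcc

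Windows of 300 bases, 250 before and 50 after the start, were at hand for 5 of the 10 members, FZD1, FZD4, FZD5, FZD8 and FZD9. All 5 were richer in CpG than the median of 35116 windows, with 25 to 40 CpG against a median of 14. A CCAAT box was in the windows of FZD1, FZD4, FZD5 and FZD8 and not in that of FZD9, and 34.6% of all windows hold one on either strand. It began 91 bases before the RefSeq start of FZD1, 75 before that of FZD4, 199 before that of FZD5 and 70 before that of FZD8. TATAAA was in the FZD8 window only, 29 bases before the start, and 7.33% of all windows hold it on the strand of the gene. The TCF and LEF core, searched on both strands as CTTTG followed by 2 letters that are each A or T, was in none of the 5 windows and in 13.8% of all windows. These matches describe the letters in the windows and were not tested for binding. The CCAAT and TATA words were chosen after the sequences were seen.

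**Figure D2:**
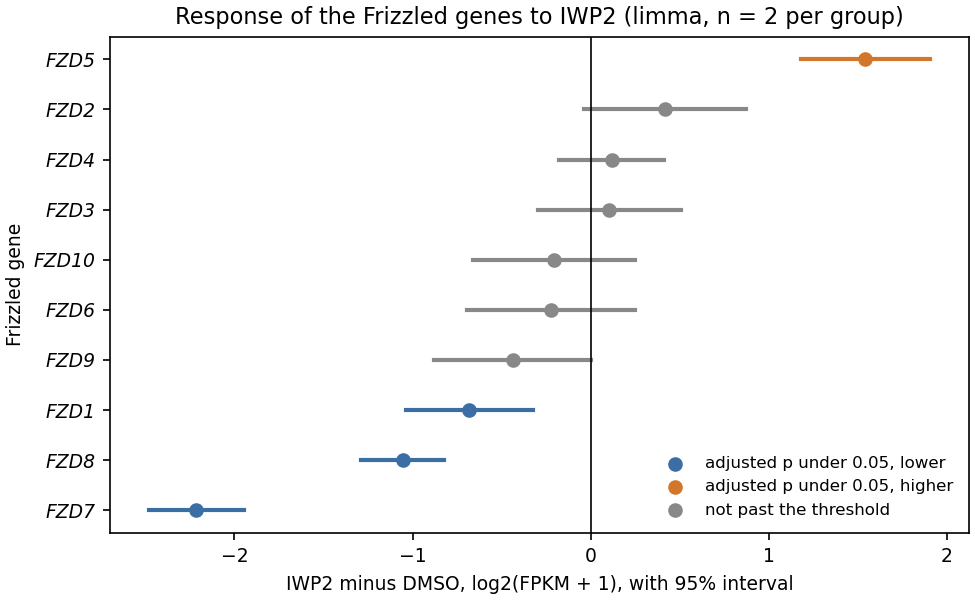
Log2 difference of each Frizzled gene between IWP2 and DMSO, on the log2(FPKM + 1) scale, with the 95% interval from limma (2 libraries a group). FZD7, FZD8 and FZD1 (blue) lie below 0 and FZD5 (orange) above it, and the intervals of the 6 members in grey include 0.

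FZD4, FZD9 and FZD10, the third subfamily, gave no call. FZD4, the receptor for Norrin in the retinal vasculature, lies on chr11:86945679-86955391, minus strand. FZD4 was at 14.7 and 12.5 FPKM in DMSO and at 14.96 and 14.70 FPKM in IWP2, and the groups overlapped. Its log2 difference was 0.12, with a 95% interval of -0.18 to 0.41 and an adjusted p of 0.559. The PRSS23 gene, introns included, lies over 7232 bases of the FZD4 gene on the opposite strand and was itself at 3.04 to 9.69 FPKM. Whether exons of the 2 genes overlap was not checked. Without strand, reads from any shared exon bases cannot be told apart.

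FZD9, one of the genes in the Williams syndrome deletion region, lies on chr7:73433783-73436120, plus strand. It was at 1.28 and 1.34 FPKM in DMSO and at 0.799 and 0.618 FPKM in IWP2, on about 60, 57, 42 and 28 fragments. Both IWP2 values were below both DMSO values, and the log2 difference of -0.44 (95% interval -0.88 to 0.0034, adjusted p = 0.177) did not pass. FZD10, known from the posterior embryo and dorsal neural tube, lies on chr12:130162459-130165740, plus strand, and was the lowest member in both groups. FZD10 was at 0.649 and 0.630 FPKM in DMSO and at 0.406 and 0.439 FPKM in IWP2. Its log2 difference was -0.20 (95% interval -0.66 to 0.25, adjusted p = 0.508). Adding 1 to each value compresses such low genes. With 0.1 added instead, the log2 differences were -0.81 for FZD9 and -0.50 for FZD10, with adjusted p of 0.190 and 0.537.

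FZD3 and FZD6, best known for planar cell polarity, the orientation of cells in the plane of a tissue, made up the last subfamily. FZD3, also required for axon guidance, was at 4.73 and 3.74 FPKM in DMSO and at 4.33 and 4.89 FPKM in IWP2. FZD6, which orients hair follicles in mice, was at 6.53 and 4.55 FPKM in DMSO and at 4.43 and 4.64 FPKM in IWP2. The groups overlapped in both genes. The log2 difference was 0.10 for FZD3 (95% interval -0.30 to 0.51, adjusted p = 0.716) and -0.22 for FZD6 (95% interval -0.70 to 0.25, adjusted p = 0.484). Between these bounds neither direction was established. The BAALC-AS1 gene, introns included, overlaps 340 bases at the start of FZD6 on the opposite strand and was at 0.326 to 1.03 FPKM.

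Across the family, the values of the 2 groups did not overlap in 7 of the 10 members, against 58.6% of all genes tested, so this count was near the background. Ordered by mean FPKM in DMSO, FZD7 (85.8 ± 9.17, SD, n = 2) led FZD8 (23.9 ± 0.568), FZD4 (13.6 ± 1.55) and FZD2 (11.3 ± 2.68). FZD6 (5.54 ± 1.40), FZD3 (4.24 ± 0.702), FZD1 (3.64 ± 0.0671) and FZD5 (3.50 ± 0.605) followed. In this order the neighbours FZD4 and FZD2, FZD6 and FZD3, and FZD1 and FZD5 had overlapping values. In IWP2 the order was FZD7 (17.7 ± 0.261), FZD2 (15.2 ± 1.24), FZD4 (14.8 ± 0.184), FZD5 (12.05 ± 0.201) and FZD8 (10.96 ± 0.0523). FZD3 (4.61 ± 0.396), FZD6 (4.53 ± 0.151) and FZD1 (1.90 ± 0.0803) came next, with FZD9 and FZD10 last in both groups. FZD2 and FZD4, and FZD3 and FZD6, overlapped among the neighbours in IWP2. FZD5 moved from place 8 to place 4 and FZD8 from place 2 to place 5.

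The summed FPKM of the 10 Frizzled genes was 148 and 158 in the DMSO libraries and 81.9 and 83.8 in the IWP2 libraries, a ratio of group means of 0.540. Nearly all of this net difference came from 1 gene. The IWP2 minus DMSO difference in mean FPKM was -70.6 for the sum and -68.1 for FZD7 alone. Without FZD7 the sum was 69.2 and 66.1 in DMSO and 64.1 and 66.3 in IWP2, and the groups overlapped. The largest differences in mean FPKM within it were opposed and partly cancelled. FZD8 went from 23.9 in DMSO to 10.96 in IWP2, FZD5 from 3.50 to 12.05 and FZD2, not called, from 11.3 to 15.2. FZD7 held 53.4% and 58.3% of the summed FPKM in DMSO and 21.8% and 20.9% in IWP2. The share of FZD5 was 2.65% and 1.94% in DMSO and 14.5% and 14.6% in IWP2. The share of FZD2 was 6.30% and 8.30% in DMSO and 17.5% and 19.2% in IWP2. FZD8 held 16.4% and 14.8% in DMSO and 13.4% and 13.0% in IWP2, so its share of the smaller sum differed less than its FPKM. The sums and shares are descriptions without a test, and they were computed on mRNA and not on protein at the cell surface.

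**Figure D3:**
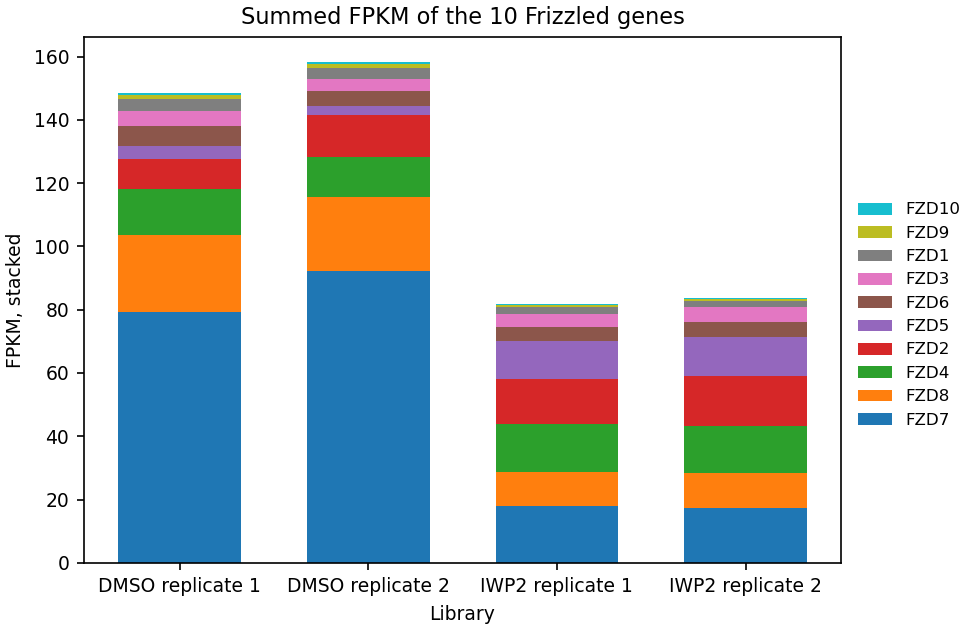
Stacked FPKM of the 10 Frizzled genes in each of the 4 libraries. The sum is 148 and 158 FPKM in the DMSO libraries and 81.9 and 83.8 FPKM in the IWP2 libraries, and the FZD7 block at the base accounts for most of the gap.

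For the most abundant member and for the called members with the most positive and most negative difference, the genes with the nearest pattern were sought by Euclidean distance between centred log2(FPKM + 1) values over the 4 libraries. FZD7 was both the most abundant and the most negative. The genes nearest to FZD7 were FMOD (distance 0.0139), LRRC2 (0.0639) and TNS2 (0.0833), with log2 differences of -2.23, -2.19 and -2.21. Those nearest to FZD5 were HTR7 (0.0790), RHPN1 (0.0914) and BCL6 (0.0918), with log2 differences of 1.52, 1.53 and 1.53. With 4 libraries in 2 groups the distance mainly reflects a like difference between the groups on the log2(FPKM + 1) scale. Adding 1 compresses low genes, so the fold difference in FPKM need not be alike. FMOD was at 3.57 and 4.33 FPKM in DMSO and at 0.065 and 0.045 FPKM in IWP2. FZD7 was at 79.3 and 92.3 FPKM in DMSO and at 17.8 and 17.5 FPKM in IWP2.

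The other genes around the receptor were read from 9 lists, some of which share genes, with 81 genes in the table, of which 63 passed the filter on low values. Of these, 26 fell and 5 rose with IWP2, 49.2% in all, beside 13.2% of all genes tested. The lists were drawn up with earlier results of these data known, so this share is a description only. With the low-value filter removed these counts were 9 lower and 1 higher, beside 381 calls among all 28917 genes tested in that fit. Without any 1 library both counts were smaller, as were those over all genes. Among the Wnt response genes, 9 of 15 fell and none rose. The log2 differences on the log2(FPKM + 1) scale were -5.22 for SP5, -4.54 for LGR5, -4.24 for DKK1 and -4.12 for NKD1. CCND1, the most abundant of that list, was at 49.7 and 60.9 FPKM in DMSO and 52.9 and 51.2 FPKM in IWP2 (log2 difference -0.08, adjusted p = 0.708).

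Of 9 tested Wnt ligands 4 fell and 2 rose. WNT5A was at 60.1 and 82.4 FPKM in DMSO and at 2.45 and 2.82 FPKM in IWP2, and fell by 4.30. WNT5B, the most abundant ligand, was at 83.2 and 70.9 FPKM in DMSO and at 10.1 and 9.67 FPKM in IWP2, and fell by 2.84. WNT2B rose by 1.82 and WNT4 fell by 1.12 on the same scale. In the secretion list, WLS, the carrier that brings Wnt proteins to the surface, fell by 0.92 and NOTUM, which removes the Wnt lipid, fell by 1.06. PORCN, the IWP2 target enzyme and named after its value was seen, was at 15.5 and 10.1 FPKM in DMSO and 6.97 and 6.97 FPKM in IWP2, with an adjusted p of 0.0777.

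Receptors that act beside the Frizzleds gave 1 rise and 2 falls among 6 tested. ROR2, a receptor kinase for WNT5A, was at 34.3 and 45.6 FPKM in DMSO and at 11.5 and 11.6 FPKM in IWP2, and fell by 1.69. ROR1 fell by 0.75 and LRP5 rose by 0.47 (adjusted p = 0.0462). LRP6, named after its value was seen, was at 19.0 and 14.3 FPKM in DMSO and 11.7 and 8.11 FPKM in IWP2. The LRP6 log2 difference of -0.70 did not pass (adjusted p = 0.106). PTK7, the most abundant of this list, had a log2 difference of -0.35 that did not pass (adjusted p = 0.0538). In the list on Frizzled turnover, 3 of 6 tested genes fell. LGR5 and LGR4, R-spondin receptors that keep Frizzleds at the surface, were at 21.5 and 27.8 FPKM and at 30.18 and 32.03 FPKM in DMSO, against 0.105 and 0.0763 FPKM and 15.6 and 14.2 FPKM in IWP2. The log2 differences were -1.01 for LGR4 and -1.08 for the R-spondin RSPO3. RSPO3 was at 1.18 and 1.39 FPKM in DMSO and at 0.0487 and 0.113 FPKM in IWP2, low values that the added 1 compresses. Its mean of 0.684 FPKM over the 4 libraries passed the filter of 0.5 FPKM only through the DMSO libraries. ZNRF3 and RNF43, the ligases that remove Frizzleds from the membrane, had log2 differences of 0.19 and -0.17, with adjusted p of 0.373 and 0.717, and were named for that role after their values were seen.

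Among Frizzled partners 4 of 7 tested genes fell and 1 rose. GPC4, a glypican that binds Wnt proteins at the cell surface, was at 32.8 and 33.4 FPKM in DMSO and 136 and 145 FPKM in IWP2, and rose by 2.05. The log2 differences were -1.04 for ADGRA2, -0.77 for TSPAN12, the FZD4 partner in Norrin signaling, and -0.71 for CTHRC1. Of 3 tested secreted Frizzled-related proteins, which bind Wnt through a Frizzled-like domain, FRZB fell by 1.96 and SFRP1 fell by 1.00. SFRP2, the most abundant, was at 89.4 and 72.2 FPKM in DMSO and 101 and 120 FPKM in IWP2 (adjusted p = 0.111). Inside the cell, DAB2 was the 1 gene called among 10 Dishevelled and receptor-proximal genes, and fell by 1.12. Over all genes tested 13.2% were called, so this count was near the background. CSNK1G2, the most abundant of these, had a log2 difference of -0.12 (adjusted p = 0.441). In the planar cell polarity list of 8, CELSR2 rose by 0.86 and ANKRD6 fell by 0.99, beside the same 13.2% over all genes. VANGL2, the most abundant, had a log2 difference of -0.51 (adjusted p = 0.0505).

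**Figure D4:**
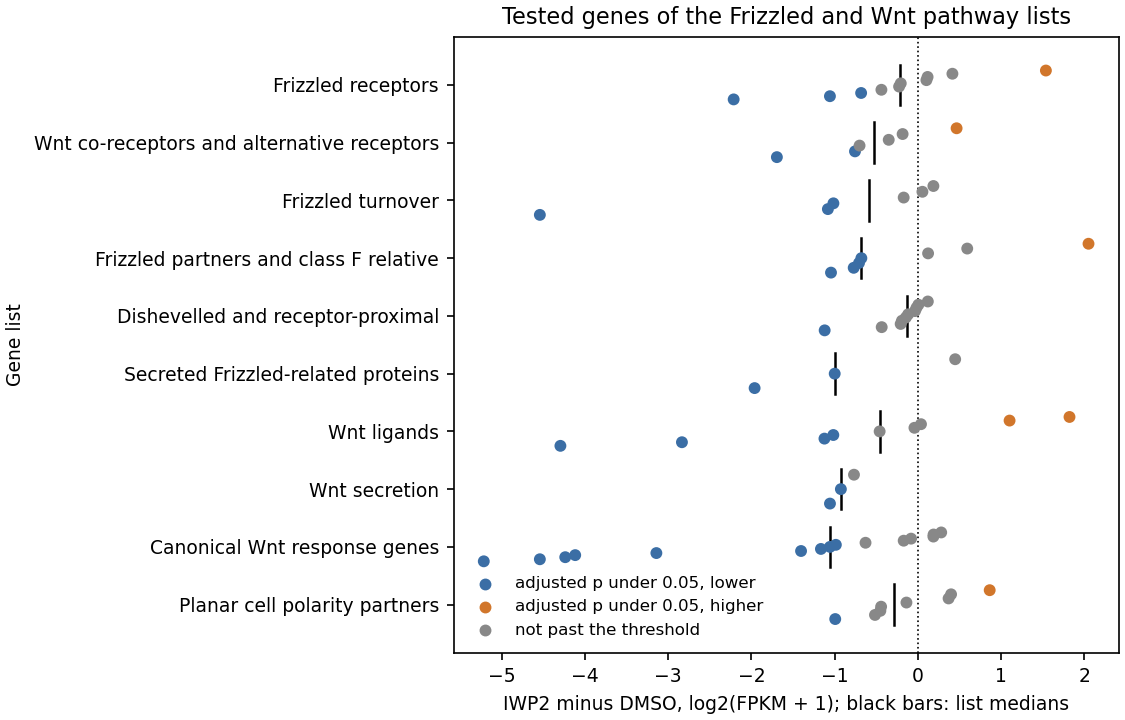
Log2 difference between IWP2 and DMSO, on the log2(FPKM + 1) scale, for each tested gene of the Frizzled family and the 9 pathway lists, with black bars at list medians. Frizzled differences run from -2.21 to 1.54 around a median of -0.21, the Wnt response list has a median of -1.06 and the Dishevelled list a median of -0.13.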

How the data were processed

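RNA-seq libraries were made from H1 total RNA (TruSeq RNA kit), and the authors deposited 1 table, 1 column a library. The deposited values are read as FPKM from the series description, with no unit named in the labels or the study's methods; their steps scale with transcript length and the column totals differ. The submitters' processing notes name BWA, Bowtie, RSEM and hg19, whereas 99.8% of the 55723 row IDs shared with GENCODE 29 carried its GRCh38 positions, so GRCh38 coordinates (from 1) are given. Strand use was not given in the sources used here.

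Genes with a mean of at least 0.5 FPKM over the 4 libraries were tested on log2(FPKM + 1) with limma 3.58.1 (R 4.3.3), eBayes with trend, 2 DMSO against 2 IWP2 libraries, two-sided, with Benjamini-Hochberg adjustment over all 15980 genes. All 10 members passed the filter. The columns without IWP2 were matched to the DMSO group by name. Fragments were derived from FPKM steps of genes with 1 transcript of at least 1500 bases. The step size and a length offset were fitted together within preset ranges, and step sizes outside were not tried. With the fitted steps, 93.2% to 93.9% of low values came out within 0.1 of a whole number. No fragment number was derived for FZD3, FZD6 and FZD10, which have more than 1 annotated transcript.

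Members and lists were chosen with earlier results of these data known. From each list, up to 4 called genes with the largest difference and the most abundant gene were named. Other pseudocounts, filters, scalings, variance models, a replicate block and leaving out each library were tried.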

Additional observations from a re-analysis of the deposited data

How the results depend on the processing

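With 2 libraries a group, each of the 4 Frizzled calls was lost without at least 1 library, while the called members kept their direction in every fit run. In fits without 1 library, in which the lone library of a group is assumed to vary like the other group, 18 to 286 genes were called higher and 76 to 410 lower, against 929 and 1175 with all 4 libraries. Such fits called 0 to 1 Frizzled higher and 0 to 2 lower by limma, and 1 pathway gene higher and 7 to 10 lower. At an unadjusted p under 0.05, 1 to 2 Frizzleds were higher and 3 to 4 lower, beside 18.9% to 26.4% of all genes tested in these fits. Log2 differences ranged from -2.32 to -2.11 for FZD7, -1.08 to -1.03 for FZD8, 1.40 to 1.68 for FZD5 and -0.71 to -0.65 for FZD1, and FZD3, not called, ranged from -0.033 (without DMSO replicate 2) to 0.24.

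With no filter on low values, 28917 genes were tested and 118 were called higher and 263 lower. Then 0 Frizzleds were called higher by limma (1 at an unadjusted p under 0.05, with 19.8% of all genes tested under it in either direction), and 1 pathway gene was called higher and 9 lower. The differences of FZD5 (1.54, adjusted p = 0.0540) and FZD1 (-0.68, adjusted p = 0.119) kept their size and lost the call. With the replicate block, 842 genes were called higher and 1059 lower, and of the Frizzled calls that of FZD1 was lost (-0.68, adjusted p = 0.0656). The labels do not say that a number marks a shared culture, and same-numbered deviations had a correlation of 0.14 across genes. A pseudocount of 0.1, a minimum mean of 1 FPKM, median-ratio scaling, quantile normalization and a fit without trend kept the 4 Frizzled calls. FZD10 was below the minimum of 1 FPKM and had no value there. Quantile normalization moved the calls from 44.2% to 50.2% higher. FZD9 rested on 28 to 60 fragments a library, and whether depth limited its call was not tested.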
